A study of Mus musculus with 12 samples.

Results

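The question here was which genes respond differently to PTB depletion in astrocytes of 2 brain regions. For each gene the response in midbrain (2 weeks of conversion against mock) was compared with the response in cortex, and the quantity reported is the difference of these responses on the log2 scale. A positive difference means that the gene rose more, or fell less, in midbrain than in cortex. A gene that differs between the regions by the same factor in both states has a difference of 0. The comparison used 8 of the 12 libraries, 2 in each of 4 groups, and all 14607 genes that passed the filter on low counts, of 54356 in the annotation.

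The 4 groups were cultures of C57BL/6 mouse astrocytes from cortex or midbrain. Mock cultures were kept in growth medium. Converted cultures carried a short hairpin RNA against PTB (shPTB) and were sampled after 2 weeks in a medium for neuronal differentiation, so hairpin and medium changed together and their effects cannot be told apart. The remaining 4 libraries, from 4 weeks of conversion, entered the fit for the estimate of spread and are given beside some results. The labels do not say that the 2 libraries of a group came from separate cultures, and the p-values then measure the spread between these libraries, which may be technical. The libraries are bulk RNA, in which fewer cells of a type and less RNA per cell cannot be told apart.

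PTB, encoded by Ptbp1, is an RNA-binding protein that holds back neuronal splicing and is replaced by its relative Ptbp2 as neurons form. Lowering it in astrocytes was proposed as a way to move them towards a neuronal programme. Astrocytes keep traces of the region in which they arose, in patterning genes, secreted factors and transporters, and astrocyte cultures can also hold oligodendrocyte-lineage, ependymal, microglial and fibroblast-like cells.

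Libraries held 6022098 to 11385761 reads, and 3 reads, the upper limit that a count of 0 allows, corresponded to 0.163 to 0.562 CPM (reads scaled to a common library size) in the 8 libraries (counting error only). Mitochondrially encoded genes took 16.9 to 22.7% of reads in mock and 37.8 to 38.7% at 2 weeks, so this share moved with conversion in both regions. The mock libraries lay further apart than the others: 21.8% of tested genes differed more than 2-fold between the 2 cortex mock libraries and 18.9% between the midbrain ones, against 12.5% and 8.65% at 2 weeks. Ptbp1 stood at 173 and 251 CPM in cortex mock, 73.0 and 73.5 CPM in cortex at 2 weeks, 208 and 250 CPM in midbrain mock, and 105 and 90.8 CPM in midbrain at 2 weeks. It fell in both regions, and the difference of responses was 0.31 ± 0.29 (edgeR adjusted p = 0.867), a value that became a call (0.0227) once the first mock library of each region was omitted. The summed level of 30 astrocyte markers was 32675 to 44658 CPM in cortex mock and 48201 to 50718 CPM at 2 weeks. In midbrain it was 30278 to 33293 and 36204 to 36761 CPM. Single markers moved both ways: of 29 tested, 9 rose and 7 fell in cortex, and 9 rose and 5 fell in midbrain. Gene coordinates are those of GENCODE M21 on GRCm38. In what follows, CPM are normalised read counts with the SD over 2 libraries, log2 values carry their standard error, and every adjusted p is from edgeR's quasi-likelihood test over all tested genes.

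At 2 weeks, 100 genes (0.685% of those tested) had a region-dependent response. Of these, 62 (0.424%) had the higher response in midbrain and 38 (0.260%) the lower. The number called depends on how the mock libraries are treated. With a term for replicate number in the mock libraries only, chosen after seeing the data, 1751 genes were called. A gene without a call is therefore not shown to respond alike in both regions. Conversion itself changed far more genes, 5117 in cortex (35.0%) and 4470 in midbrain (30.6%), and 3376 of them were called in both regions in the same direction against 13 in opposite directions. Across all tested genes the responses of the 2 regions correlated with r = 0.796, a description over genes, which are not independent replicates. At an unadjusted p under 0.05, 1391 genes differed, and DESeq2 called 168 genes, among them 94 of the 100. The size of the called differences ran from 1.18 to 8.18 with a median of 2.48, where the median over all genes was 0.39. In each of the 100 genes, every library-to-library response of one region lay above every one of the other, which was also true of 3183 tested genes (21.8%). Protein-coding genes made up 91 of the 100, and 89 reached a mean of 10 CPM in at least 1 of the 4 groups.

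**Figure D1:**
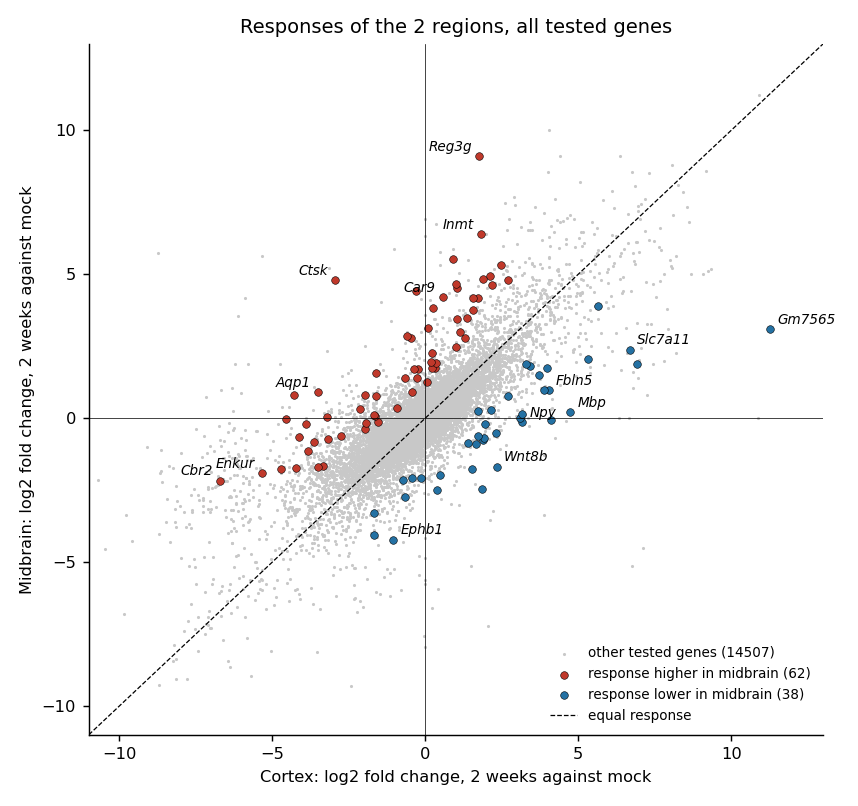
Log2 fold change at 2 weeks against mock in cortex (horizontal axis) and midbrain (vertical axis) for 14607 tested genes, with the 62 genes whose response was higher in midbrain in red, the 38 whose response was lower in blue, and a dashed line of equal response. Most genes follow the dashed line, and the coloured genes lie above it (Reg3g, Inmt, Ctsk) or below it (Gm7565, Mbp, Slc7a11).

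The call of 23 genes held when each of the 8 libraries was left out in turn: Mbp, Slc7a11, Npy, Fam20a, Fbln5, Nkd1, Fmo1, Sparcl1, Ifitm1, Chil1, Enpp2, Apod, Cited1, Islr, Chgb, Spon2, Igf2, Aqp1, Cbr2, Inmt, Ndufa4l2, Reg3g and Ctsk. For the other 77 genes at least 1 omission ended the call, in 39 of them an omission of a 2-week library alone. The total fell to 34 and 26 genes without cortex 2-week library 1 or 2 and to 36 and 33 without midbrain 2-week library 1 or 2. It rose to 163 without cortex mock library 2. Of these 23, other settings ended the calls of Slc7a11, Chgb and Ctsk (limma voom with library weights, adjusted p = 0.0502, 0.109 and 0.139) and of Npy (transcript length offset, 0.0547). Of the 100, limma voom with library weights kept 53, and among the others described below it ended the calls of Wnt8b (adjusted p = 0.582), Fgf10 (0.453), Gfra2 (0.449), Stc2 (0.316), Cacng5 (0.241), Aldh1a2 (0.15), Zmynd10 (0.132), Epha5 (0.124), Gabbr2 (0.12), Kcnn3 (0.0813), Kcnk3 (0.081), Nkx6-2 (0.081) and Sox10 (0.0763). Without both mock libraries numbered 1 there were 1284 calls, 99 of the 100 among them, and without both numbered 2 there were 1559, with all 100.

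The 100 genes fell into different kinds of response. Of the 62 genes with a higher response in midbrain, 17 rose in both regions and rose further in midbrain, 17 rose in midbrain and did not pass the test in cortex, 16 fell in cortex and did not pass in midbrain, and 7 fell in both and fell less in midbrain. Of the 38 with a lower response in midbrain, 12 rose in both, 12 rose in cortex and did not pass in midbrain, 5 fell in midbrain and did not pass in cortex, and 4 fell in both. With TMM scaling, opposite changes, each past the test, were found for Ctsk, Aqp1, Islr, Cdhr4 and Itgb4, which fell in cortex and rose in midbrain, and for D030055H07Rik, Wnt8b, Tmem151a, Sparcl1 and Col16a1, which rose in cortex and fell in midbrain. These patterns depend on the scaling. With total reads as the scale, the median response of all genes moved from -0.11 to -0.85 in cortex and from -0.07 to -0.74 in midbrain. None of the 100 genes then changed from a rise to a fall or back within a region, and the median of the difference of responses moved from 0.03 to 0.10, but many single-region calls were lost or gained. In cortex 7 were lost and 11 gained, so that 46 rises and 32 falls became 39 and 43, and in midbrain 8 were lost and 14 gained, so that 51 rises and 21 falls became 43 and 35. Of the 62 genes, 11 then rose in both regions and 16, among them Igf2, Serping1 and A2m, fell in both. The set with a fall in cortex and a rise in midbrain became Ctsk, Islr, Cdhr4, Spon1, Epha5, Gm42503, Tmem132b, Adam11 and Cited1, without Aqp1 and Itgb4. The set with a rise in cortex and a fall in midbrain became D030055H07Rik, Wnt8b, Sparcl1, Col16a1, Fmo1, Pappa, Lama4, Spock2 and Kcnn3, without Tmem151a. Rises that TMM scaling gave and total reads did not include those of Ifitm1, Chgb and Spon2 in cortex and of Fbln5, Fgf10 and Slco1a4 in midbrain.

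The difference of responses can also be read as a change in the gap between the regions. In mock, 320 genes (2.19%) differed between midbrain and cortex, and at 2 weeks 430 (2.94%). Of the 62 genes with a higher response in midbrain, 33 were lower in midbrain in mock cultures, and 25 of these no longer passed the test between regions at 2 weeks, while 8 had turned to being higher in midbrain (AC160336.1, Adam11, Enpp2, Igf2, Aqp1, Cbr2, Inmt and Reg3g). A further 24 did not pass in mock and were higher in midbrain at 2 weeks. Of the 38 genes with a lower response in midbrain, 26 were higher in midbrain in mock, 19 of which no longer passed at 2 weeks and 5 of which had become lower in midbrain (Gm7565, Mbp, Slc7a11, Fam20a and Sparcl1). The regional gap was narrower at 2 weeks in 52 of the 100 genes and wider in 48. The tests between regions use the same libraries as the difference of responses, so these counts describe the called genes and are no separate evidence.

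**Figure D2:**
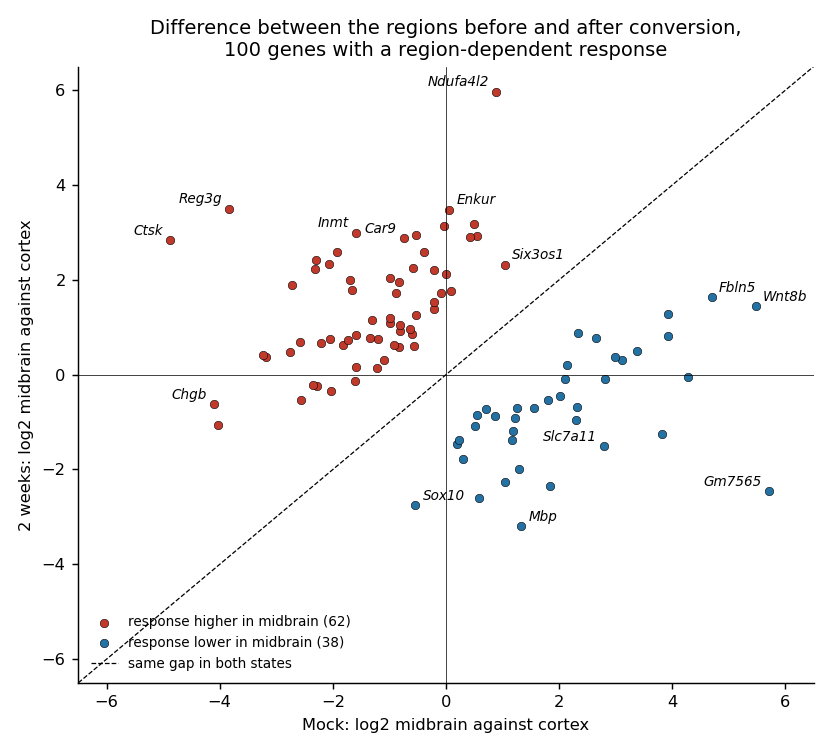
Log2 difference of midbrain against cortex in mock (horizontal axis) and at 2 weeks (vertical axis) for the 100 genes with a region-dependent response, red where the response was higher in midbrain and blue where it was lower. Fbln5 and Wnt8b start far apart and move towards 0. Reg3g and Ctsk cross from below to above 0, though Ctsk did not pass the test between regions at 2 weeks. Enkur starts near 0 and ends higher in midbrain.

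The oligodendrocyte-lineage genes Mbp and Sox10 rose more in cortex than in midbrain. Mbp, which encodes myelin basic protein, stood at 1.28 and 1.59 CPM in cortex mock and at 34.6 and 42.2 CPM in cortex at 2 weeks. In midbrain it was at 3.31 and 3.92 CPM in mock and at 4.30 and 4.08 CPM at 2 weeks. The 2 converted cortex libraries were thus the high ones and the other 6 lay between 1.28 and 4.30 CPM. The difference of responses was -4.53 ± 0.32 (adjusted p = 0.000117). Sox10 (ENSMUSG00000033006.10, chr15:79154908-79165240, minus strand), the transcription factor that directs the oligodendrocyte lineage, rose in both regions, from 5.67 ± 1.44 to 88.0 ± 3.67 CPM in cortex and from 3.89 ± 1.13 to 13 ± 1.90 CPM in midbrain (difference -2.22 ± 0.34, adjusted p = 0.0138, and 0.0642 to 0.118 without each of the 4 libraries of 2 weeks). Enpp2 (ENSMUSG00000022425.16, chr15:54838901-54952892, minus strand), which encodes the lipid-signalling enzyme autotaxin and is made by oligodendrocytes and choroid plexus, moved the other way. It went from 7.38 and 6.68 to 22.1 and 19.8 CPM in cortex and from 3.85 and 3.72 to 65.1 and 73.2 CPM in midbrain (2.62 ± 0.25, adjusted p = 0.000580). It overlaps an antisense gene, and whether the counting used strand is not stated by the labels or notes.

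Of the 14 tested markers of oligodendrocytes and their precursors, Mbp and Sox10 were called lower and Enpp2 higher in midbrain, and 11 lay below 0 with a median of -1.03, against a median of 0.03 over all genes. The myelin gene Mag went from 0.45 to 25.7 CPM in cortex and from 0.28 to 2.34 CPM in midbrain (difference -2.80 ± 0.89, adjusted p = 0.270). Mobp, also a myelin gene, had -1.74 ± 0.77 (adjusted p = 0.502). Pdgfra and Cspg4, markers of precursors, stood at 1.47 and 0.79 CPM in cortex and 2.07 and 0.44 CPM in midbrain at 2 weeks. The summed level of all 20 listed markers rose from between 179 and 202 to between 453 and 487 CPM in cortex and was 264 to 306 and 307 to 310 CPM in midbrain. Of the 14 tested, 8 rose and 2 fell in cortex, with a median response of 1.01, and 7 rose and 3 fell in midbrain, with a median of 0.70. Members at 0 reads were Mog and Opalin in cortex mock and Gpr17, Opalin and Ugt8a in cortex at 2 weeks. In midbrain they were Gpr17, Mog and Opalin in mock and Ermn and Ugt8a at 2 weeks. The part of oligodendrocyte-lineage cells in these values was not tested.

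Slc7a11 encodes the cystine importer xCT, which exchanges glutamate for cystine, supplies glutathione synthesis and is induced when cells lack amino acids or face oxidants. Its promoter is shown because it holds the sequence TGATGCAA, a core of the amino acid response element, in both orientations (RefSeq, GRCm38.p6, chr3:50443564-50443863, minus strand, written along the gene). Capitals mark the 2 matches, which start 66 and 47 bases before the transcription start.
Slc7a11: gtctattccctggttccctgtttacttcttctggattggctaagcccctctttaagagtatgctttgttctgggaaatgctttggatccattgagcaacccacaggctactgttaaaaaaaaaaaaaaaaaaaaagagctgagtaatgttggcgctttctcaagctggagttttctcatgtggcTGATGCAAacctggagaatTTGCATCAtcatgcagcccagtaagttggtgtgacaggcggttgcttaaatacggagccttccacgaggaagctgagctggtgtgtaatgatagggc
Searched on both strands, TGATGCAA occurs in 0.895% of 32851 RefSeq promoter windows of the same length, and 2 matches occur in 0.00609%. It occurs in 2 of the 64 called genes with a window, Slc7a11 and Fbln5. The motif was chosen after the values were seen, and a match is a description of the letters.

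Slc7a11 stood at 0.41 and 0.80 CPM in cortex mock and at 63.8 and 57.5 CPM in cortex at 2 weeks. In midbrain it stood at 4.39 and 3.79 CPM in mock and at 19.8 and 23 CPM at 2 weeks. It rose in both regions and crossed over, lowest in cortex before conversion and highest there after it, and no 2 groups overlapped. The difference of responses was -4.30 ± 0.35 (adjusted p = 0.000204). Of the 22 tested integrated stress response genes it was the one called, 16 lay below 0 and the median was -0.36. Asns, which makes asparagine, had -1.58 ± 0.41 (adjusted p = 0.144, DESeq2 adjusted p = 0.0441), the pseudokinase gene Trib3 -1.52 ± 0.42 (adjusted p = 0.195) and the glutathione-degrading enzyme gene Chac1 -1.35 ± 0.34 (adjusted p = 0.139). Slc3a2, the partner chain of xCT, rose in both regions (difference -0.06 ± 0.61, adjusted p = 1). Stc2, a stress-inducible secreted glycoprotein, went from 1.19 ± 0.45 to 16.1 ± 0.718 CPM in cortex and from 5.32 ± 0.0753 to 15.1 ± 0.742 CPM in midbrain (-2.20 ± 0.34, adjusted p = 0.0146, and 0.0796 to 0.117 without each library of 2 weeks).

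Among neuropeptide genes 1 had the lower and 1 the higher response in midbrain. Npy (ENSMUSG00000029819.6, chr6:49822710-49829507, plus strand), the gene of neuropeptide Y, stood at 2.50 and 1.59 CPM in cortex mock and rose to 20.6 and 17.0 CPM. In midbrain it stood at 5.15 and 3.40 CPM and then at 4.07 and 3.75 CPM, so both converted cortex libraries lay above the other 6. The difference was -3.31 ± 0.40 (adjusted p = 0.00335). Chgb (ENSMUSG00000027350.8, chr2:132781278-132795079, plus strand), a granin of secretory vesicles, took the opposite course: 11.4 and 8.20 CPM in cortex mock and 20.8 and 19.3 CPM at 2 weeks, against 0.597 and 0.514 CPM in midbrain mock and 13.9 and 12.1 CPM at 2 weeks (3.49 ± 0.34, adjusted p = 0.000660). Midbrain started far below cortex in Chgb and ended below it by less, with no overlap of the groups. Of 20 tested neuropeptide and granin genes these 2 were called, 10 lay above 0 and the median was 0.05. Sst, encoding somatostatin, went from 0.35 to 10.6 CPM in cortex and from 0.23 to 73.4 CPM in midbrain (3.17 ± 0.87, adjusted p = 0.191 by edgeR and 0.00907 by DESeq2).

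None of 25 tested synaptic vesicle and release genes was called by edgeR or by DESeq2. Unadjusted p of the difference was under 0.05 in 6 of them, against 9.52% of all genes. In cortex 14 rose and 0 fell, with a median response of 1.12, and in midbrain 9 rose and 2 fell, with a median of 0.57. The difference lay below 0 in 23 of the 25, with a median of -0.52. Syt4 and Syt1, synaptotagmins, had -2.09 ± 0.49 (adjusted p = 0.114) and -2.31 ± 0.59 (adjusted p = 0.14), and Snap25, a fusion protein, had -1.87 ± 0.94 (adjusted p = 0.581). Of 27 tested pan-neuronal markers none was called by either tool, 7 had an unadjusted p under 0.05, 19 lay below 0 and the median was -0.47. The summed level of 30 such markers was 1665 to 2108 CPM in cortex mock and 5311 to 5678 CPM at 2 weeks, against 1537 to 1720 and 2705 to 2731 CPM in midbrain. Thy1, whose values are given with the matrix genes below, made up most of this sum at 2 weeks in both regions. Of the 27 tested markers, 13 rose and 5 fell in cortex, and 7 rose and 6 fell in midbrain. Tubb3 had 0.06 ± 0.39 (adjusted p = 0.995), Map2 0.20 ± 0.29 (adjusted p = 0.938) and Rbfox3 -2.67 ± 0.79 (adjusted p = 0.226, and 0.0473 with a block in the mock libraries only), the last at 0.304 to 2.06 CPM in all 4 groups. Tubb3 itself fell in both regions, from 62.4 to 21.6 CPM in cortex and from 37.3 to 13.5 CPM in midbrain. Map2 passed the test in neither region, and Rbfox3 rose in cortex and did not pass in midbrain. Of 29 tested voltage-gated and potassium channel genes 2 were called and of 28 tested neurotransmitter receptor genes 1, each with the lower response in midbrain, while Kcnk3, a potassium channel outside these lists, had 2.20 ± 0.34 (adjusted p = 0.0142, and 0.065 to 0.116 without each library of 2 weeks). Gabbr2, a subunit of the GABA-B receptor, rose from 1.05 ± 0.422 to 8.98 ± 0.537 CPM in cortex and was 15.8 ± 6.95 and 15.7 ± 0.358 CPM in midbrain (-3.12 ± 0.48, adjusted p = 0.0142). Kcnn3, a calcium-activated potassium channel, had -2.14 ± 0.38 (adjusted p = 0.0301), and Cacng5, an auxiliary subunit of AMPA receptors, -1.44 ± 0.26 (adjusted p = 0.0302). The calls of Gabbr2, Kcnn3 and Cacng5 ended without each library of 2 weeks (adjusted p = 0.0821 to 0.197), and those of Kcnn3 and Cacng5 also without midbrain mock library 2 (0.0604 and 0.0611).

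No difference of responses was detectable among the dopaminergic genes with edgeR at this depth. None of 15 tested was called by edgeR, 3 had an unadjusted p under 0.05, and DESeq2 called 1. Th, which encodes tyrosine hydroxylase of the dopamine pathway, stood at 0.0581 and 0.398 CPM in cortex mock, 1.5 and 1.62 CPM in cortex at 2 weeks, 0.217 and 0.321 CPM in midbrain mock and 0.113 and 0.110 CPM in midbrain at 2 weeks. The midbrain values at 2 weeks rest on 2 reads (2.37-fold lower than mock, exact 95% interval 0.491 to 22.5), and the difference was -3.98 ± 1.46 (adjusted p = 0.374). Nr4a2 (-0.34 ± 0.73, adjusted p = 0.971) and En1 (-0.31 ± 0.60, adjusted p = 0.965), midbrain dopaminergic factors, had differences smaller than their standard errors. Among 16 tested midbrain and hindbrain patterning factors 1 was called, Nkx6-2, a homeobox gene that is also active in oligodendrocytes. It rose from 5.61 ± 1.85 to 24.9 ± 0.198 CPM in cortex and was 35.1 ± 9.82 and 42.4 ± 1.70 CPM in midbrain (-1.89 ± 0.36, adjusted p = 0.0390). That call ended without each library of 2 weeks, cortex mock library 1 and midbrain mock library 2 (0.0604 to 0.240). Of 22 tested forebrain factors none was called by edgeR, 4 had an unadjusted p under 0.05 and DESeq2 called 1.

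Of 39 tested matrix genes 4 were called, each with the lower response in midbrain, and the median difference was 0.02. Most of the list fell in both regions, unlike these 4, which rose in cortex. In cortex 25 fell and 5 rose, with a median response of -1.83, and in midbrain 28 fell and 3 rose, with a median of -1.59. Sparcl1 (ENSMUSG00000029309.7, chr5:104079111-104113733, minus strand), a secreted matricellular protein of astrocytes, stood at 58.2 and 45.3 CPM in cortex mock and 168 and 157 CPM at 2 weeks, against 136 and 97.6 CPM in midbrain mock and 59.0 and 66.0 CPM at 2 weeks (-2.55 ± 0.29, adjusted p = 0.00205). It rose in cortex and fell in midbrain, and the 2 converted cortex libraries ended as the highest of the 8. Lama4, a laminin chain, rose from 13.9 ± 4.83 to 52.6 ± 6.12 CPM in cortex and was 110 ± 43.6 and 67.8 ± 4.33 CPM in midbrain (-2.62 ± 0.41, adjusted p = 0.0146). Col16a1, a collagen chain, had -2.25 ± 0.36 (adjusted p = 0.0158), and Loxl1, which crosslinks elastin, -1.47 ± 0.22 (adjusted p = 0.0141). Without each library of 2 weeks these 3 calls ended (0.0750 to 0.127). The summed level of 18 fibroblast and pericyte markers was 1907 to 2340 CPM in cortex mock and 4133 to 4396 CPM at 2 weeks. In midbrain it was 3133 to 3450 and 2007 to 2043 CPM. The part of such cells in these values was not tested. The list holds Thy1, also a neuronal gene, which made up most of the sum at 2 weeks in both regions and a smaller part in mock. Thy1 went from 754 to 4058 CPM in cortex and from 547 to 1578 CPM in midbrain (difference -0.90, adjusted p = 0.282). Its level thus went up in midbrain while the sum there went down. Of the 18 markers 11 fell and 4 rose in cortex, with a median response there of -2.32. In midbrain 9 fell and 4 rose, with a median of -1.76. The difference was above 0 in 11 of the 18, and Igf2 was called higher in midbrain. The fibrillar collagen gene Col1a1 fell in both regions, with 0.57 ± 0.33 (adjusted p = 0.668).

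Fbln5 (ENSMUSG00000021186.9, chr12:101746565-101819055, minus strand), an elastic-fibre protein, stood at 4.65 and 5.49 CPM in cortex mock and 82.6 and 83.3 CPM at 2 weeks, and at 122 and 140 CPM in midbrain mock and 243 and 270 CPM at 2 weeks. It rose in both regions, the groups did not overlap, and midbrain stayed higher while the gap narrowed from 4.70 to 1.63 on the log2 scale (difference -3.07 ± 0.25, adjusted p = 0.000204). Fam20a, a pseudokinase of the secretory pathway, rose from 3.79 ± 0.266 to 152 ± 13.9 CPM in cortex and from 18.6 ± 3.04 to 77.8 ± 6.92 CPM in midbrain (-3.25 ± 0.27, adjusted p = 0.000204). Fmo1, a flavin monooxygenase, rose from 2.24 ± 0.209 to 11 ± 0.00693 CPM in cortex and was 19.4 ± 0.677 and 13.7 ± 2.14 CPM in midbrain (-2.81 ± 0.29, adjusted p = 0.00103). Slc13a5, a citrate importer, stood at 0.697 and 0.477 CPM in cortex mock and 11.6 and 9.58 CPM at 2 weeks, against 2.66 and 1.67, then 2.38 and 1.77 CPM in midbrain (-4.19 ± 0.56, adjusted p = 0.00581, and 0.0520 without midbrain 2-week library 2 and 0.21 with limma voom and library weights). Ephb1, an ephrin receptor, fell in both regions and further in midbrain, from 15.6 ± 6.72 to 7.53 ± 0.593 CPM in cortex and from 23.3 ± 4.35 to 1.23 ± 0.338 CPM in midbrain (-3.19 ± 0.48, adjusted p = 0.0127, and 0.0620 to 0.116 without each library of 2 weeks).

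Among 29 tested Wnt pathway genes, Nkd1 and Wnt8b were called, both lower in midbrain, and the median was 0.01. Nkd1 (ENSMUSG00000031661.12, chr8:88521354-88594884, plus strand), an inhibitor that is itself induced by Wnt signalling, stood at 2.79 and 3.50 CPM in cortex mock and 30.1 and 26 CPM at 2 weeks, and at 16.1 and 15.1 CPM in midbrain mock and 17.9 and 16.9 CPM at 2 weeks (-3.0 ± 0.28, adjusted p = 0.000482). Cortex moved from below midbrain to above it, while the midbrain libraries stayed between 15.1 and 17.9 CPM. Wnt8b, a Wnt ligand of the developing forebrain and midbrain, was at 0.349 and 0.239 CPM in cortex mock, 1.87 and 1.30 CPM in cortex at 2 weeks, 8.68 and 19.2 CPM in midbrain mock and 4.98 and 3.64 CPM in midbrain at 2 weeks (-4.03 ± 0.76, adjusted p = 0.0390). Its call ended without either cortex mock library and without each library of 2 weeks (0.0681 to 0.272). Axin2, another Wnt-induced inhibitor, had 1.48 ± 1.69 (adjusted p = 0.908) at 0.0936 to 2.81 CPM. Fgf10, a ligand, rose from 0.453 ± 0.147 to 6.65 ± 0.928 CPM in cortex and from 3.19 ± 0.212 to 6.27 ± 1.06 CPM in midbrain (-2.90 ± 0.45, adjusted p = 0.0146), and Gfra2, the receptor of neurturin, rose in both with -1.60 ± 0.29 (adjusted p = 0.0319). Both calls ended without each library of 2 weeks (0.0593 to 0.194), and that of Gfra2 also without cortex mock library 1 and midbrain mock library 1 (0.0570 at the lowest).

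Gm7565, a pseudogene, had the difference of greatest size, and it is uncertain. It was at 0 reads in both cortex mock libraries and at 27.5 and 34.7 CPM in cortex at 2 weeks, at least 311-fold higher than 3 reads over the mock group, and at 0.543 and 0.770 and then 4.75 and 6.51 CPM in midbrain. The fitted difference was -8.18 ± 0.88 (adjusted p = 0.00613, and 0.0517 without cortex 2-week library 2 and 0.449 with limma voom and library weights), but 52.3% of its 3′ end is shared with other genes, and it was at 0 reads in all 4 libraries of 4 weeks. D030055H07Rik, a long non-coding gene that overlaps Glyctk on the other strand, stood at 0.581 and 0.637, then 1.69 and 2.76 CPM in cortex and at 8.57 and 15.6, then 1.92 and 2.43 CPM in midbrain (-4.33 ± 0.60, adjusted p = 0.00677, and 0.0526 and 0.106 without cortex 2-week library 2 or midbrain 2-week library 1, and 0.127 with limma voom and library weights).

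**Figure D3:**
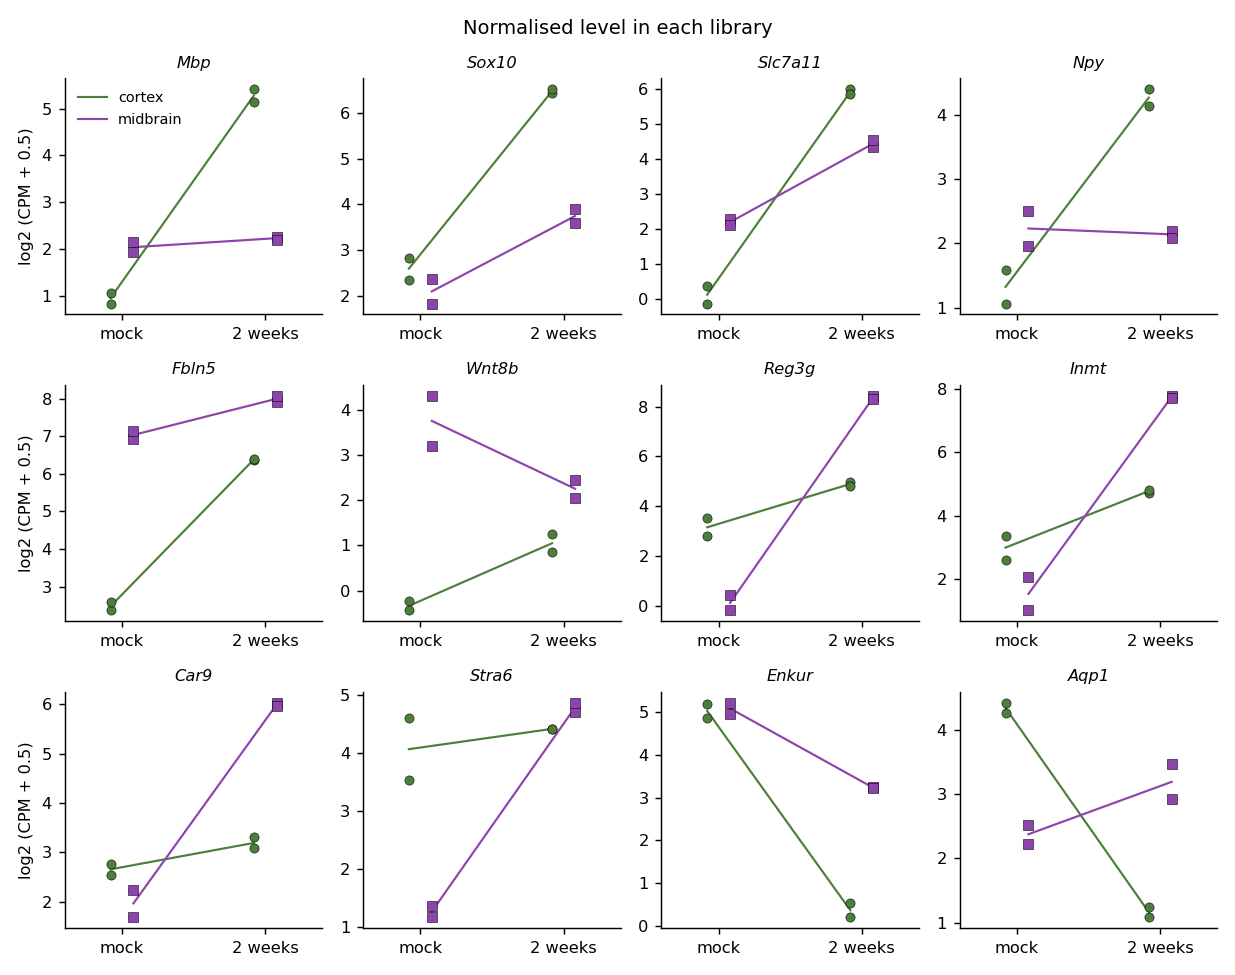
Normalised level, log2 (CPM + 0.5), in each of the 8 libraries for 12 genes, with green circles and lines for cortex, purple squares and lines for midbrain, points for libraries and lines joining group means. Mbp and Npy rise in cortex and are nearly level in midbrain, Reg3g, Inmt and Car9 rise most in midbrain, and Enkur falls in both regions and further in cortex.

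Reg3g (ENSMUSG00000030017.2, chr6:78466269-78468872, minus strand), Chil1, Ifitm1 and Apod rose in both regions and further in midbrain. Reg3g, a secreted antibacterial lectin, stood at 6.45 and 10.9 CPM in cortex mock and 30.9 and 27.8 CPM at 2 weeks. In midbrain it stood at 0.380 and 0.835 CPM in mock and at 345 and 319 CPM at 2 weeks. It rose in both regions, the groups did not overlap, and midbrain went from the lowest to the highest of the 4 groups (difference 7.33 ± 0.51, adjusted p = 0.000117). Chil1 (ENSMUSG00000064246.10, chr1:134182176-134190181, plus strand), a chitinase-like protein of reactive astrocytes, rose from 47.9 and 48.5 to 217 and 218 CPM in cortex and from 14.9 and 12.3 to 329 and 344 CPM in midbrain (2.46 ± 0.24, adjusted p = 0.000660). Ifitm1, an interferon-induced membrane protein, rose from 24.9 ± 4.83 to 50.5 ± 0.194 CPM in cortex and from 21.4 ± 0.196 to 234 ± 3.58 CPM in midbrain (2.43 ± 0.26, adjusted p = 0.00112), with 26.6% of its 3′ end shared with other genes. Apod, a lipid-binding lipocalin, rose from 17.7 ± 2.79 to 98.4 ± 7.54 CPM in cortex and from 3.82 ± 0.502 to 155 ± 3.72 CPM in midbrain (2.87 ± 0.27, adjusted p = 0.000501).

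Of 28 tested reactive astrocyte genes, Serping1 was called higher and Fbln5 lower in midbrain, and the median was 0.43. Serping1, the complement C1 inhibitor, fell in cortex from 65.6 ± 5.20 to 16.7 ± 0.703 CPM and stood at 56.3 ± 6.32 and 43.6 ± 1.60 CPM in midbrain (1.60 ± 0.24, adjusted p = 0.0137, and 0.0768 to 0.115 without each library of 2 weeks). Lcn2, a lipocalin of reactive astrocytes, rose in both regions with 0.43 ± 0.29 (adjusted p = 0.741). Of 29 tested astrocyte markers edgeR called none, 8 had an unadjusted p under 0.05, DESeq2 called 2, and the median was 0.11. Gfap had -0.58 ± 0.40 (adjusted p = 0.750), Aqp4 0.43 ± 0.28 (adjusted p = 0.724) and Slc1a3 0.41 ± 0.23 (adjusted p = 0.654). All 3 became calls in the same direction without both mock libraries numbered 1 (adjusted p = 0.000495, 0.0101 and 0.00379 for Gfap, Aqp4 and Slc1a3), without both numbered 2 (1.67e-08, 0.000202 and 0.0079) and with a block in the mock libraries only (0.000257, 0.00318 and 0.00564). Of 22 tested interferon-response genes none was called by edgeR or DESeq2, 3 had an unadjusted p under 0.05, and the median was -0.28. The 18 microglia markers gave none by either tool, with 3 at an unadjusted p under 0.05, and their sum fell in both regions, from 1791 to 2488 CPM in cortex mock to 193 to 202 CPM, and from 1875 to 2416 CPM in midbrain mock to 151 to 160 CPM. Lyz2, a lysozyme of myeloid cells, fell in both and further in midbrain, from 600 ± 49.2 to 188 ± 8.38 CPM in cortex and from 707 ± 93.6 to 71.8 ± 1.99 CPM in midbrain (-1.62 ± 0.26, adjusted p = 0.0177, and 0.116 to 0.165 without each library of 2 weeks), with 36.2% of its 3′ end shared. The part of microglia in that value was not tested.

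Car9, Egln3 and Ndufa4l2, genes of the response to low oxygen, had the higher response in midbrain. Cells sense oxygen through prolyl hydroxylases, and when oxygen is short the factor HIF binds sites around the core ACGTG and raises genes of glycolysis, acid handling and the hydroxylases themselves. The promoters of Car9 and Egln3 are shown because both genes are textbook targets of that response and both were called here. Car9 is RefSeq GRCm38.p6 chr4:43506776-43507075, plus strand, and Egln3 chr12:54203825-54204124, minus strand, each written along the gene with the core in capitals, in either orientation.
Car9: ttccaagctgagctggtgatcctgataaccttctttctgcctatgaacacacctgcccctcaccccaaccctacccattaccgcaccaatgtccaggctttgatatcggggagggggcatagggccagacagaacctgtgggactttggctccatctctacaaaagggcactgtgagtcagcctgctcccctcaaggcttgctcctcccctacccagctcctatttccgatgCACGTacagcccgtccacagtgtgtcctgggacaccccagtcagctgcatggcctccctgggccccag
Egln3: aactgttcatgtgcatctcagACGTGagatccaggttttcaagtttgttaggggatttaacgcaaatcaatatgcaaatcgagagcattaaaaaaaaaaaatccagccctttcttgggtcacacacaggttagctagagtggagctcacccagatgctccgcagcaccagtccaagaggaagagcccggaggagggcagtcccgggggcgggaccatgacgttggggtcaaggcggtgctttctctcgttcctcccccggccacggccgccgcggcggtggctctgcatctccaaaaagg
The core starts 18 bases before the transcription start in Car9 and 229 bases before it in Egln3. ACGTG, searched on both strands, occurs in 19.6% of the 32851 promoter windows and in 11 of the 64 called genes that had a window. It too was chosen after the values were seen.

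Car9, a membrane carbonic anhydrase, stood at 5.35 and 6.29 CPM in cortex mock and 9.36 and 7.95 CPM at 2 weeks. In midbrain it stood at 2.71 and 4.24 CPM in mock and at 65.1 and 62.0 CPM at 2 weeks, the high libraries of the 8. The difference was 3.62 ± 0.44 (adjusted p = 0.00320, and 0.0517 without cortex 2-week library 2). Egln3, a prolyl hydroxylase, fell from 13.6 ± 3.31 to 3.48 ± 0.105 CPM in cortex and was 7.68 ± 2.33 and 13.6 ± 2.05 CPM in midbrain (2.79 ± 0.46, adjusted p = 0.0219, and 0.0711 to 0.145 without each library of 2 weeks). Ndufa4l2, a mitochondrial protein induced in low oxygen, stood at 3.31 and 3.98 CPM in cortex mock and at 0 and 0.325 CPM at 2 weeks, and at 6.51 and 6.93, then 13.7 and 9.6 CPM in midbrain (5.09 ± 0.67, adjusted p = 0.00511). The cortex value at 2 weeks rests on 2 reads (20.7-fold lower than mock, exact 95% interval 5.59 to 173), and the gene overlaps Shmt2 on the other strand. Of 23 tested glycolysis and hypoxia genes, Car9 and Egln3 were called, 19 lay above 0 and the median was 0.51. Slc16a3, a lactate exporter, had 2.29 ± 0.59 (adjusted p = 0.143), Adm 1.83 ± 0.59 (adjusted p = 0.274), Vegfa 0.70 ± 0.62 (adjusted p = 0.850), and Slc2a1, the glucose transporter, 0.26 ± 0.50 (adjusted p = 0.963).

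Genes for retinol uptake and conversion had the higher response in midbrain. Retinol enters cells through the receptor Stra6 and its aldehyde is turned into retinoic acid by Aldh1a2, and both were among the 3 called of 19 tested retinoid genes. Stra6 stood at 11 and 23.6 CPM in cortex mock and 20.8 and 20.8 CPM at 2 weeks, and at 1.74 and 2.05 CPM in midbrain mock and 25.5 and 28.6 CPM at 2 weeks (3.56 ± 0.47, adjusted p = 0.00530). Midbrain started below every cortex library and ended above the converted cortex ones. Aldh1a2 rose from 4.71 and 5.81 to 15 and 12 CPM in cortex and from 1.74 and 2.38 to 23.1 and 23 CPM in midbrain (2.12 ± 0.32, adjusted p = 0.0124). Across the list 17 of 19 lay above 0, where 52.2% of all genes did, and the median was 0.79. Crabp2, a carrier of retinoic acid (1.99 ± 0.75, adjusted p = 0.389), and the receptor gene Rarb, itself induced by retinoic acid (2.00 ± 0.52, adjusted p = 0.151), did not pass, nor did Aldh1a1, a related enzyme that rose in both regions (0.12 ± 0.35, adjusted p = 0.981). Leaving out libraries of 2 weeks ended the calls of Stra6 (both cortex ones, 0.0546 and 0.0549) and of Aldh1a2 (cortex 2 and both midbrain ones, 0.0654 to 0.102).

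Several genes of motile cilia fell in both regions and further in cortex. Motile cilia beat on ependymal cells, and their genes are driven by FOXJ1 and RFX factors. Enkur, a protein of the ciliary axoneme, stood at 28.6 and 36.1 CPM in cortex mock and 0.936 and 0.649 CPM at 2 weeks, and at 30.5 and 36.8 CPM in midbrain mock and 8.94 and 8.83 CPM at 2 weeks. The mock libraries of both regions overlapped, and the 2-week libraries did not (3.42 ± 0.51, adjusted p = 0.0129). Its promoter (RefSeq GRCm38.p6, chr2:21205316-21205615, minus strand, written along the gene) is shown for 2 copies of GTTGCTA, a motif of the kind RFX factors bind, here in reverse orientation and in capitals, starting 20 and 5 bases before the transcription start.
Enkur: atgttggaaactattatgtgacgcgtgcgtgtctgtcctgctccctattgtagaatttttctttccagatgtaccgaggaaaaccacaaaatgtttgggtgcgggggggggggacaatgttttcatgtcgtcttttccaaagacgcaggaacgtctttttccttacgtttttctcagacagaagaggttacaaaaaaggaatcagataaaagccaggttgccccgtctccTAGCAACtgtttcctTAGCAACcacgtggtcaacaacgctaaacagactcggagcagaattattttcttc
GTTGCTA, searched on both strands and chosen after the values were seen, occurs in 3.66% of the 32851 promoter windows, at least 2 copies occur in 0.149%, and of the 64 called genes with a window Enkur was the 1 that held it.

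Rsph1, a radial spoke protein, went from 98.7 ± 5.73 to 9.70 ± 1.10 CPM in cortex and from 105 ± 0.467 to 33.1 ± 6.28 CPM in midbrain (1.69 ± 0.26, adjusted p = 0.0146). Zmynd10, a dynein assembly factor, went from 11.7 ± 0.622 to 0.605 ± 0.0619 and from 15.6 ± 1.90 to 4.65 ± 1.27 CPM (2.49 ± 0.45, adjusted p = 0.0318), and Odf3b, a protein of cilia and sperm tails, from 16.2 ± 3.43 to 1.13 ± 0.00902 and from 22.9 ± 1.47 to 10.3 ± 0.263 CPM (2.68 ± 0.45, adjusted p = 0.0244). The cortex value of Zmynd10 at 2 weeks rests on 3 and 4 reads in its libraries, and that of Odf3b on 6 and 7. In these libraries 3 reads correspond to 0.562 and 0.487 CPM, so the cortex value of Enkur at 2 weeks also rests on few reads. Of 15 tested ependymal and choroid plexus markers, Rsph1 was called, 14 lay above 0 and the median was 1.19. Not all of the 15 fell: in cortex 10 fell and 1 rose, and in midbrain 7 fell and 4 rose. Foxj1 itself went from 48.0 to 3.84 CPM in cortex and from 38.6 to 7.69 CPM in midbrain (1.32 ± 0.60, adjusted p = 0.519). The summed level of the 17 listed markers was 257 to 334 CPM in cortex mock and 53.6 to 53.9 CPM at 2 weeks, against 291 to 342 and 182 to 188 CPM in midbrain. At 2 weeks Dnah11 and Kl were at 0 reads in cortex and no marker was at 0 in midbrain. The part of ependymal cells in these values was not tested. The calls of Enkur, Zmynd10 and Odf3b ended without each library of 2 weeks, that of Zmynd10 also without midbrain mock library 1, and that of Rsph1 without 3 of the 2-week libraries (cortex 1 and 2 and midbrain 1), with adjusted p of 0.0511 to 0.209.

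**Figure D4:**
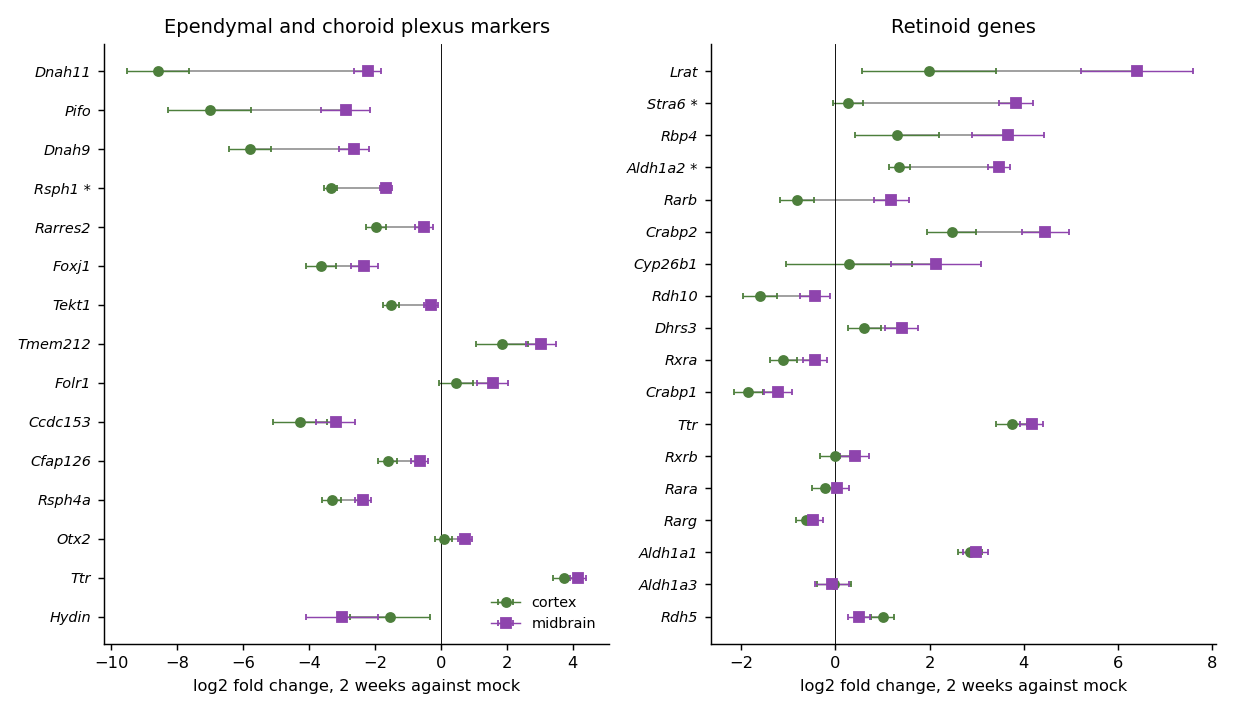
Log2 fold change at 2 weeks against mock with its standard error, for 15 tested ependymal and choroid plexus markers (left) and 18 of the 19 tested retinoid genes (right), with green circles for cortex, purple squares for midbrain, and stars for genes with a called difference of responses. Midbrain lies to the right of cortex in 14 of the 15 and in 16 of the 18.

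Other genes with a higher response in midbrain were enzymes, channels and secreted factors. Inmt (ENSMUSG00000003477.5, chr6:55170626-55175043, minus strand), a methyltransferase of indoles and other amines, stood at 5.64 and 9.87 CPM in cortex mock and 26 and 27.9 CPM at 2 weeks, and at 1.52 and 3.66 CPM in midbrain mock and 220 and 212 CPM at 2 weeks (4.58 ± 0.48, adjusted p = 0.00112). Aqp1 (ENSMUSG00000004655.5, chr6:55336432-55348555, plus strand), the water channel of choroid plexus and some astrocytes, fell in cortex from 18.7 and 20.9 to 1.87 and 1.62 CPM and rose in midbrain from 4.18 and 5.26 to 10.5 and 7.06 CPM (4.39 ± 0.40, adjusted p = 0.000482). Igf2, an insulin-like growth factor, fell from 70.1 and 108 to 5.62 and 6.33 CPM in cortex and was at 22.1 and 32.9, then 25.8 and 22.3 CPM in midbrain (3.70 ± 0.43, adjusted p = 0.00254). All of the 3′ end of Igf2 (100%) is shared with another annotated gene, so its value is uncertain. Cbr2, a carbonyl reductase, fell in both, from 38.6 and 37.2 to 0.187 and 0.487 CPM in cortex and from 7.81 and 7.38 to 1.58 and 1.77 CPM in midbrain (4.55 ± 0.56, adjusted p = 0.00360), with 42.1% of its 3′ end shared. In the cortex libraries of 2 weeks, 3 reads correspond to 0.562 and 0.487 CPM, so the Cbr2 values there rest on few reads.

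Spon2, a secreted matrix protein, rose from 18.8 ± 2.73 to 37.4 ± 1.93 CPM in cortex and from 2.00 ± 0.445 to 50.2 ± 0.135 CPM in midbrain (3.66 ± 0.28, adjusted p = 0.000175). Cited1, a transcriptional co-activator, stood at 11 ± 2.80 and 11.7 ± 0.170 CPM in cortex and rose from 5.54 ± 1.78 to 48.3 ± 2.28 CPM in midbrain (3.03 ± 0.35, adjusted p = 0.00233). Islr, a secreted leucine-rich repeat protein, fell from 57.2 ± 3.02 to 41.1 ± 0.337 CPM in cortex and rose from 9.53 ± 0.508 to 65.9 ± 8.28 CPM in midbrain (3.27 ± 0.23, adjusted p = 0.000117), and it overlaps Islr2 on the same strand. Sostdc1, a secreted inhibitor of BMP and Wnt ligands, fell from 19.9 and 17.4 to 1.5 and 0.649 CPM in cortex and was at 13.7 and 12.2, then 9.39 and 6.95 CPM in midbrain (3.47 ± 0.45, adjusted p = 0.00476, and 0.0546 without cortex 2-week library 2). S100g, a calcium-binding protein, was at 11.3 and 30.5, then 1.31 and 0.487 CPM in cortex and at 3.74 and 7.25, then 5.09 and 5.63 CPM in midbrain (4.52 ± 0.87, adjusted p = 0.0442). Its call ended without midbrain mock library 1 and without each library of 2 weeks (0.0678 to 0.299). Ctsk, the protease cathepsin K, rests on few reads: 63 in cortex mock and 3 at 2 weeks (8.13-fold lower, exact 95% interval 2.66 to 40.5), and 2 in midbrain mock and 35 at 2 weeks (33.2-fold higher, 8.54 to 285), with a fitted difference of 7.72 ± 0.97 (adjusted p = 0.00374).

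Of 7 tested endothelial markers 1 was called, and of 40 tested axon guidance and adhesion genes 1 was called higher and 1 lower in midbrain. Slco1a4, an organic anion transporter listed here as an endothelial marker, stood at 38.7 ± 15.3 and 24.6 ± 2.35 CPM in cortex and rose from 7.94 ± 0.970 to 20.8 ± 1 CPM in midbrain (2.05 ± 0.35, adjusted p = 0.0266). The summed level of 11 endothelial markers was 28.9 to 60.0 CPM in mock and 33.7 to 38.2 CPM at 2 weeks, with Tek at 0 reads in all 4 groups. Epha5, an ephrin receptor, stood at 15.2 ± 0.966 and 12.4 ± 0.148 CPM in cortex and rose from 3.70 ± 0.481 to 9.84 ± 0.333 CPM in midbrain (1.69 ± 0.29, adjusted p = 0.0244), while its relative Ephb1 had the lower response there. Both calls ended without each library of 2 weeks, that of Slco1a4 also without midbrain mock library 2 and that of Epha5 without midbrain mock library 1 (0.0570 to 0.169). Tmem132b, a membrane protein, rose in midbrain from 16.4 ± 2.02 to 79.2 ± 0.617 CPM and stood at 97.2 ± 16.1 and 114 ± 2.27 CPM in cortex (2.05 ± 0.25, adjusted p = 0.00366, and 0.0546 without cortex 2-week library 2).

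Over 37 gene lists with 718 tested genes, 31 members were called and 17 lists had no call. Besides those above, none of 30 tested proliferation genes was called by either tool, 3 had an unadjusted p under 0.05, and the median was 0.42. Of 18 tested Notch pathway genes and 23 tested cholesterol biosynthesis genes none was called by either tool, and 3 and 2 had an unadjusted p under 0.05. The targets and repressors of the PTB pathway gave none of 16 by either tool, with 1 at an unadjusted p under 0.05. Ptbp2 had 0.30 ± 0.36 (adjusted p = 0.916) and Rest, a repressor of neuronal genes, -0.05 ± 0.67 (adjusted p = 1). Gad1, the GABA-synthesis enzyme, rose in both regions with -0.16 ± 0.27 (adjusted p = 0.951).

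**Figure D5:**
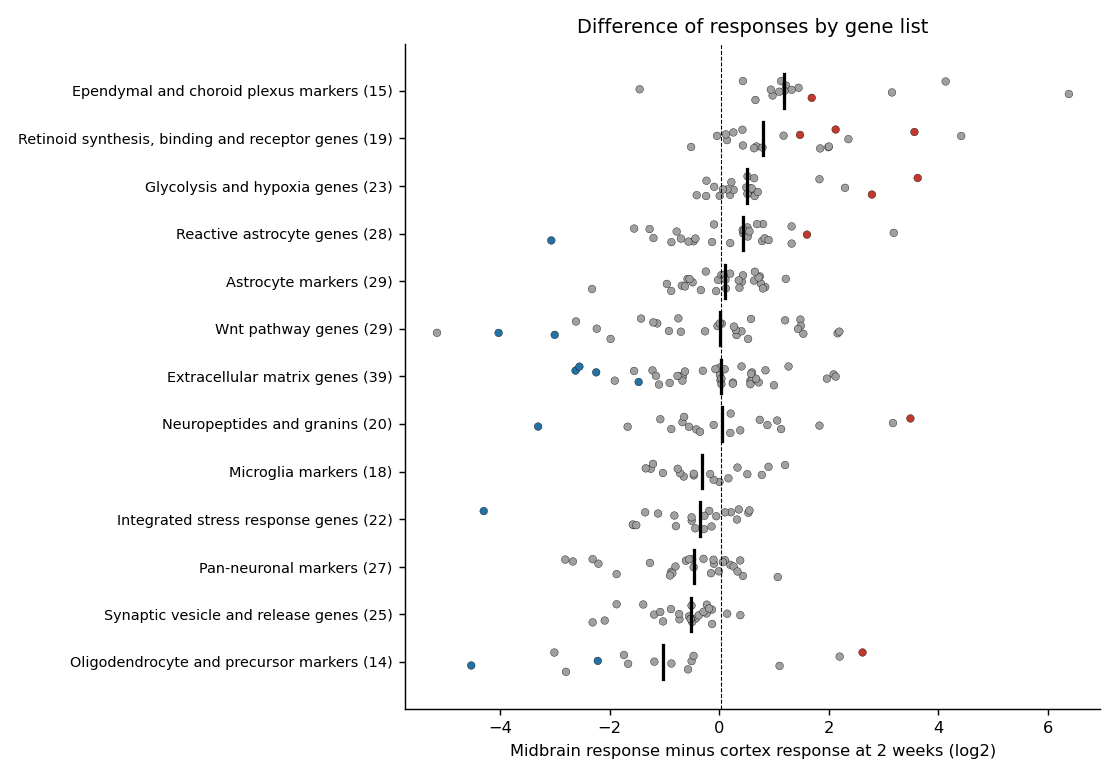
Difference of responses (midbrain minus cortex, log2) of each tested member of 13 gene lists, with the number tested in brackets, called members in red (higher) or blue (lower), a black bar at each list's median and a dashed line at the median of all genes, 0.03. The medians run from 1.19 for ependymal markers to -1.03 for oligodendrocyte markers.

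At 4 weeks, the same difference of responses was called in 372 genes (2.55%). It uses the same mock libraries as the 2-week comparison, so the values are given side by side and are no separate support. Of the 100 genes, 84 were called at 4 weeks. Gm7565 had no read at 4 weeks and so no 4-week response, and the other 99 had the same sign at both times. Mbp had -4.53 ± 0.32 at 2 weeks and -4.51 at 4 weeks, with cortex at 38.4 ± 5.35 and 36.5 ± 1.28 CPM and midbrain at 4.19 ± 0.153 and 4.01 ± 0.392 CPM. Reg3g had 7.33 and 11.6, with midbrain at 332 ± 18 and 122 ± 9.03 CPM and cortex at 29.3 ± 2.22 and 0.554 ± 0.512 CPM. Car9 had 3.62 and 7.14, with midbrain at 63.5 ± 2.15 and 24.7 ± 2.44 CPM and cortex at 8.66 ± 0.996 and 0.275 ± 0.389 CPM. The means of both genes were lower at 4 than at 2 weeks in each region, a step that was not tested. In the 2 cortex libraries of 4 weeks, 3 reads correspond to 0.549 and 0.576 CPM. The cortex means of Reg3g and Car9 at 4 weeks lie near or below that level, so the size of their 4-week differences is uncertain. Chil1 had 2.46 and 4.85, with midbrain at 337 ± 10.3 and 858 ± 6.42 CPM and cortex at 217 ± 1.19 and 105 ± 1.46 CPM. Slc7a11 had -4.30 and -3.14, and Fbln5 -3.07 and -2.27. Egln3 had 2.79 and 1.4 (adjusted p = 0.211 at 4 weeks), and Stc2 -2.20 and -1.32 (adjusted p = 0.0858).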

How the data were processed

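RNA-seq libraries of 3′-end-biased design without molecular identifiers were made from mouse astrocytes (12 libraries). Per the submitters' processing notes, reads were trimmed with cutadapt 2.3 and quantified with Salmon 0.14.1, and the notes also name DESeq2 and mm10. Not given in the sources used here are the annotation release and the strand setting. The deposited files hold estimated counts per transcript, which the authors did not normalise between libraries, and TPM. The TPM and effective lengths entered one alternative alone. Estimated counts were summed per gene (GENCODE M21, IDs matched without version, 521 of 140658 transcripts unmatched, at most 0.129% of reads) and rounded. Genes were filtered (count minimum 10, total minimum 15), TMM-scaled and fitted in edgeR 4.0.16 (R 4.3.3) as 6 groups (6 residual degrees of freedom, common dispersion 0.055). Contrasts were tested by quasi-likelihood, with Benjamini-Hochberg adjustment over all 14607 tested genes and a threshold of 0.05. CPM are scaled to the TMM-adjusted library size.

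Named genes were the 12 largest differences in each direction among called genes with at least 10 CPM in a group and separate responses, up to 3 called genes a list, and 14 fixed genes, and others were named after their values were seen. Some of these genes are not reported here. Members and lists were chosen with earlier results of these data known. Alternatives used DESeq2 1.42.0 and limma 3.58.1, other scalings, filters, blocks and omitted libraries. Same-numbered mock libraries of the regions deviated together (r = 0.634) and no other pair of groups did (r = -0.036 to 0.0194). The numbers were not taken to pair samples in the main fit, which leaves the deviation shared by the mock libraries in its spread. The labels do not say what these mock libraries share. Gm7565 and Igf2 were called uncertain because their 3′ ends are shared with other annotated genes. Of other genes named above, the shared part was 61.7% for Cdhr4, 54.9% for AC160336.1 and 43.6% for Gm42503, so these values are uncertain too. On the other strand, Nkx6-2 overlaps Inpp5a, Kcnk3 overlaps Gm9899 and Cdhr4 overlaps 4921523L03Rik. Promoter sequences are from RefSeq (GRCm38.p6), which held a window for 64 of the 100 called genes.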

Additional observations from a re-analysis of the deposited data

Results flagged for a closer look

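The response to conversion of 100 genes differed between the regions by a test of the difference itself, edgeR's contrast over 8 libraries with 2 in each group. With 2 libraries a group, no library was tested for standing apart from its group. The values are log2 differences, midbrain response minus cortex response, and the order is by size.

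The response was lower in midbrain for 38 genes. These began with Gm7565 with -8.18, Rnase1 with -5.05, Mbp with -4.53, D030055H07Rik with -4.33, Slc7a11 with -4.30, Slc13a5 with -4.19 and Wnt8b with -4.03. Next came Npy with -3.31, Tmem151a with -3.28, Fam20a with -3.25, Ephb1 with -3.19, Gabbr2 with -3.12, Fbln5 with -3.07 and Nkd1 with -3.0. They went on with Fgf10 with -2.90, Ccn4 with -2.89, Fmo1 with -2.81, Pappa with -2.65, Lama4 with -2.62, Sparcl1 with -2.55 and Timp3 with -2.46. Smaller in size were Lpl with -2.38, Spock2 with -2.35, Col16a1 with -2.25, Sox10 with -2.22, Stc2 with -2.20, Kcnn3 with -2.14 and Ttc9b with -2.08. After these stood Wnk2 with -1.94, Igfbp4 with -1.93, Nkx6-2 with -1.89, Espn with -1.74, Dscaml1 with -1.65, Lyz2 with -1.62 and Gfra2 with -1.60. Last came Loxl1 with -1.47, Cacng5 with -1.44 and Meg3 with -1.41.

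The response was higher in midbrain for 62 genes. They began with Ctsk with 7.72, Reg3g with 7.33, Ndufa4l2 with 5.09, Prg4 with 4.71, Gm12840 with 4.60, Inmt with 4.58 and Cbr2 with 4.55. Below these came S100g with 4.52, Aqp1 with 4.39, Igf2 with 3.70, Spon2 with 3.66, Car9 with 3.62, Stra6 with 3.56 and Chgb with 3.49. Then stood Sostdc1 with 3.47, Gm26911 with 3.43, Enkur with 3.42, Islr with 3.27, Glycam1 with 3.25, Cdhr4 with 3.17 and Cited1 with 3.03. The next were Fam216b with 2.98, Fbxo40 with 2.96, Apod with 2.87, Mfsd2a with 2.83, A230005M16Rik with 2.82, Egln3 with 2.79 and Odf3b with 2.68. Further down came Enpp2 with 2.62, Zmynd10 with 2.49, A2m with 2.47, Cyp1b1 with 2.46, Chil1 with 2.46, Tgm2 with 2.44 and Ifitm1 with 2.43. Lower still were Itgb4 with 2.37, Kcnk3 with 2.20, Aldh1a2 with 2.12, Hist1h4h with 2.12, 6820408C15Rik with 2.12, Adam11 with 2.07 and Slco1a4 with 2.05. There followed Tmem132b with 2.05, Gm42503 with 1.95, AC160336.1 with 1.85, Pltp with 1.81, Emb with 1.78, Akap12 with 1.77 and Myo7a with 1.76. Smaller again were Osbpl5 with 1.74, Epha5 with 1.69, Rsph1 with 1.69, Serping1 with 1.60, Cyp2d22 with 1.60, Gdpd5 with 1.54 and Mbd1 with 1.49. The smallest were Rasl10b with 1.41, Aff3 with 1.4, Arhgef19 with 1.36, Six3os1 with 1.28 and Spon1 with 1.18.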

How the results depend on the processing

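Over 22 alternatives no called gene changed direction, and 19 of the 100 passed all of them, and the fewest passed by any was 8 (Dscaml1). The 100 calls (62 higher, 38 lower) became 168 (99 and 69) with DESeq2, 62 (42 and 20) with limma voom and library weights, 318 (200 and 118) without a count filter, 34 (23 and 11) with the 4 compared groups alone, and 47 (32 and 15) with a transcript length offset. Leaving out 1 library at a time gave 26 to 163 calls, 16 to 97 higher and 10 to 82 lower. The total moved by over 1.5 times without cortex mock library 2 and without each 2-week library. Without both mock libraries numbered 1 there were 1284 calls (744 and 540), and without both numbered 2 there were 1559 (678 and 881). The cause was not tested.

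With a replicate block within each region there were 67 calls (45 higher, 22 lower), and with a replicate block across regions 119 (75 and 44). A block in the mock libraries only, chosen after seeing the data, gave 1751 (885 and 866), with all 100 among them. Same-numbered mock libraries of cortex and midbrain correlated in their deviations and the other groups did not.

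Some of the fixed genes, none of which was called, changed sign under some alternatives. Gfap, Aqp4, Slc1a3, Th, Rbfox3 and Nr4a2 kept their sign. With a transcript length offset, Gad1 had 0.0073, Rest 0.0226, Tubb3 -0.15, Map2 -0.16 and Ptbp1 -0.0014. Rest had 0.0479 with total reads. Without both mock libraries numbered 1, En1 had 0.18 and Rest 0.0617, and without both numbered 2, Tubb3 had -0.0397 and Ptbp2 -0.0151. Leaving out 1 library at a time gave En1 -1.53 to 0.46, Gad1 -0.34 to 0.0087, Map2 -0.0307 to 0.47, Ptbp2 -0.19 to 0.68, Rest -0.63 to 0.64 and Tubb3 -0.33 to 0.38.

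Depth limits genes near 3 reads, among them Ctsk, Ndufa4l2, Rnase1, Th, Cbr2, Zmynd10 and Enkur, and Reg3g and Car9 in cortex at 4 weeks. With 2 libraries a group the median standard error of a difference was 0.51.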
